A study of Mus musculus with 4 samples.

Results

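The cells described here are the Pi16-negative fibroblasts of the ascending aorta after infusion of angiotensin II (AngII), in cells sorted as derived from the second heart field (SHF). They were picked by their own UMI counts from the SHF AngII library. A barcode had to show 500 or more genes, no more than 10% of UMIs from mitochondrial genes, and a fibroblast gate of at least 1 UMI of Pdgfra, at least 5 of Dcn, at most 2 of Myh11, and 0 of Ptprc and Pecam1. It then had to lack Pi16 and to hold fewer than 2 UMIs each of Comp, Chad and Cthrc1. Of 11166 barcodes in this library 9490 passed the cell filter, 2398 passed the fibroblast gate, and 170 were Pi16-negative fibroblasts. The values of those 9 genes chose the cells and are given as a description only.

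The study asked how cells from the second heart field and from other origins differ in their response to AngII. All mice were male and of the strain Mef2c-mTmG, in which a reporter marks a lineage and living single cells are sorted on it. The 3 libraries used were SHF baseline (no infusion), SHF AngII (3 days of infusion) and CNC AngII (3 days of infusion, a group name that the labels do not spell out), with 1 library per group. The age of the mice and the number pooled per library are not given in the sources used here. Purity depends on the reporter and was not tested here, and a sorted library can hold several cell types.

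Fibroblasts of the aortic wall lie mostly in the adventitia, where they make collagen, elastic fibre proteins and proteoglycans and signal to immune cells. Pi16 marks adventitial fibroblasts that occur in many organs and are often described as a reservoir state. Cthrc1 marks activated, collagen-producing fibroblasts of injured tissue, and Comp and Chad are cartilage-type matrix genes. A fibroblast with none of these marks is defined by what it lacks, so the cells left over may be of several kinds. AngII is a peptide hormone that raises blood pressure and acts on vascular cells mainly through the type 1 angiotensin receptor.

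Judged by Lum, the labelled cell type held for most, but not all, of the 170 cells. Lum, a collagen-binding proteoglycan that the gate did not use, had a UMI in 94.7% of them, against 19.9% of the 4523 smooth muscle-gated cells of the library (median depths 9408.5 and 13360.0 UMIs). Of the 8 fibroblast markers the gate used Pdgfra and Dcn. None of the other 6 was at 0, and their summed level was 11695 CPM (UMIs of a gene per 1000000 UMIs), against 15430.1 CPM in the other gated fibroblasts and 3748 CPM in the smooth muscle-gated cells. Lum stood at 1679 CPM and Col1a1, the main chain of collagen I, at 2969.6 CPM. Markers of blood and vessel-lining cells were at or near 0, also without Pecam1 and Ptprc, which the gate set to 0. Of the markers the gate did not use, 3 of 5 endothelial, 3 of 7 macrophage and 5 of 5 lymphocyte ones had no UMI, and the summed levels were 1.58, 15.3 and 0 CPM. Scrublet marked 0 of the 170 cells as doublets.

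Markers of 3 other types were counted cell by cell, while pericyte and cardiomyocyte markers are given as levels. The 5 pericyte markers summed to 202 CPM, against 142 CPM in the other gated fibroblasts and 311 CPM at baseline. The 6 cardiomyocyte markers summed to 319 and 54.2 CPM here and in the other gated fibroblasts. Nearly all of that was Tnnt2, a cardiac troponin (315 and 53.2 CPM), which stood at 466 CPM in smooth muscle-gated cells. Mesothelial cells form the smooth outer lining of organs, and 7 of the 170 cells (4.12%, exact interval 1.67 to 8.30) had at least 2 of their 6 markers, against 2 of the 2228 other gated fibroblasts. Msln, the mesothelial surface protein mesothelin, reached 125 CPM, and all of its UMIs came from those 7 cells. A single cell held all 371 UMIs of Car3, an enzyme abundant in fat cells, and had at least 2 adipocyte markers. At least 4 of 8 smooth muscle markers were found in 21 cells (12.4%, 7.81 to 18.3), against 96 (4.31%) of the other gated fibroblasts and 12 (2.93%) of the baseline cells of the same gate. Without Myh11, which the gate limits, the 7 smooth muscle markers summed to 283 CPM here, 196 CPM at baseline and 4410.1 CPM in the smooth muscle-gated cells. The part of the cells counted here in each result below was not tested, and the values without them are given for some results only.

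The share of gated fibroblasts that were Pi16-negative was lower after AngII than at baseline. It was 7.09% (6.09 to 8.19) in SHF AngII, 12.6% (11.5 to 13.8; 410 of 3262 cells) in SHF baseline, and 7.93% (6.12 to 10.1; 61 of 769 cells) in CNC AngII. The gate reads raw UMIs and therefore depth. The 170 cells had a median of 9408.5 UMIs (835 to 38377), the 410 baseline cells 8597.0 and the 61 CNC AngII cells 8666.0, while the other gated fibroblasts of SHF AngII had 16038.0. With every cell thinned to 5000 UMIs before the gate, and shallower cells left out, the shares were 13.1% (11.3 to 15.03), 16.1% (14.6 to 17.8) and 11.8% (8.99 to 15.2). Only 83 of the 172 cells that passed in thinned SHF AngII were among the 170.

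Cells with at least 2 UMIs of Cthrc1 made up 51.5% of the gate in SHF AngII and 5.15% at baseline, and the rule leaves them out. Among gated cells with fewer than 2 UMIs each of Comp, Chad and Cthrc1, the share without Pi16 was 16.3% (14.1 to 18.7; 170 of 1042) after AngII and 14.1% (12.8 to 15.4; 410 of 2916) at baseline. Those intervals overlap, and the order is the reverse of the order over the whole gate. Just outside the Pi16 limit stood 93 cells with 1 UMI and 70 with 2, beside 655 with at least 4. Just inside the Cthrc1 limit stood 24 cells with 1 UMI, and just outside it 8 with 2. The Pdgfra limit was the closest: 88 of the 170 cells had a single UMI, and 189 cells that met every other part of the rule had none.

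**Figure D1:**
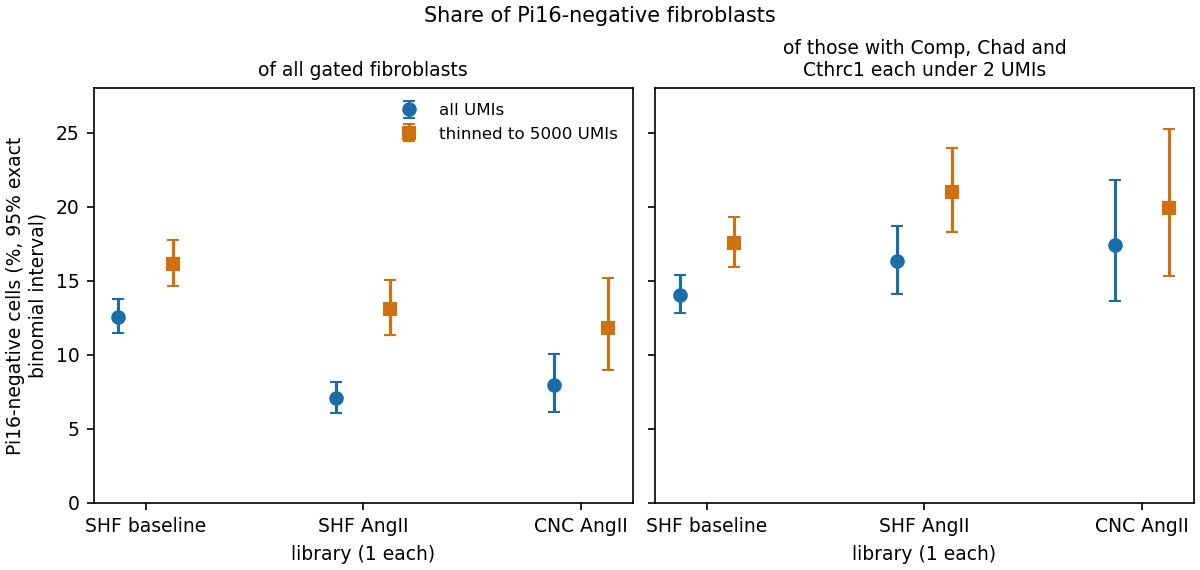
Percent of cells without Pi16 and with Comp, Chad and Cthrc1 each under 2 UMIs, in SHF baseline, SHF AngII and CNC AngII (1 library each; bars are 95% exact binomial intervals and cover counting error only). Left, of all gated fibroblasts, SHF AngII (7.09%) lies below SHF baseline (12.6%); right, of those low in the 3 matrix genes, the SHF intervals overlap; squares show cells thinned to 5000 UMIs.

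The most abundant transcripts were those of matrix and secreted proteins. Mgp, the matrix Gla protein that inhibits calcification of vessel walls, stood at 33718 CPM, against 26825 CPM in the other gated fibroblasts and 15359 CPM in the baseline cells. Cst3, a secreted protease inhibitor, stood at 13725 CPM, and Sparc, a collagen-binding matricellular protein, at 8246 CPM. Mgp was also the gene that varied most between cells: at 5000 UMIs per cell its median was 145.5 UMIs, with a range of 0 to 824 and a Fano factor (variance over mean) of 133. The median Fano factor over 3095 genes was 1.14, near the value of 1 that counting alone would give, and 360 genes exceeded 2.

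Several of the most variable genes rested on a handful of cells. Spp1, the secreted matrix protein osteopontin, had a UMI in 10.1% of the thinned cells, and 90.5% of its UMIs (unthinned) came from 5 cells. Fabp4, a fatty acid carrier of fat and endothelial cells, had 70.8% of its UMIs in 5 cells, and its relative Fabp5 had 78.8%. Saa3, an acute-phase protein, came from 3 cells only. Acta2, the smooth muscle actin that also marks myofibroblasts, rested on more cells, with 18.1% of its UMIs in 5 of them. Its median was 14 UMIs at 5000 per cell, with a range of 0 to 173.

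Clustering of the 170 cells alone gave 5 sub-clusters, whose leading genes define them and are not a result. The largest, with 63 cells (37.1%), was led by Tnfaip6, Tnxb and Clec3b and was fibroblast-like by 3 markers. It was the shallowest, at a median of 6711 UMIs. A group of 51 cells (30.0%) was led by Rgs17, Tnnt2 and Fhl2, and 31 cells (18.2%) by Bdnf, Hbegf and Rgs4. A further 18 cells (10.6%) were led by cell-cycle genes such as Mki67 and Top2a. The remaining 7 cells (4.12%) were mesothelial-like by 6 markers, among them Msln, Upk1b and Upk3b, and were the deepest at a median of 23347 UMIs. Lum had no UMI in those 7 cells, although their median of Dcn was 49 UMIs. The sub-clusters other than the fibroblast-like and mesothelial-like ones met fewer than 3 markers of any type and are left unnamed. In the Tnnt2 and Bdnf groups the type with the most markers was smooth muscle, with 1 marker met in each. Lum nevertheless had a UMI in 100% of the cells of both. Its median was 15 UMIs in the Tnnt2 group, 12 in the Bdnf group and 15 in the fibroblast-like group.

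The sub-clusters differed widely in contractile and adventitial genes. Acta2 stood at 7149 CPM in the Bdnf group, 5800.2 CPM in the Tnnt2 group, 3789 CPM in the cycling group, 1135 CPM in the fibroblast-like group and 95.2 CPM in the mesothelial-like group. Itga8, an integrin chain of smooth muscle and perivascular cells, was at 252, 284, 159, 13.8 and 0 CPM in the same order. Ly6a, the surface protein Sca-1 of adventitial progenitors, was highest where Acta2 was low among the Lum-positive groups, at 99.7, 34.0, 498, 955 and 34.0 CPM. Ccl7, a monocyte-attracting chemokine, was at 931 CPM in the fibroblast-like group and 16.0 CPM in the Tnnt2 group. Of the 21 cells with smooth muscle markers, 9 were in the Bdnf group and 9 in the Tnnt2 group.

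**Figure D2:**
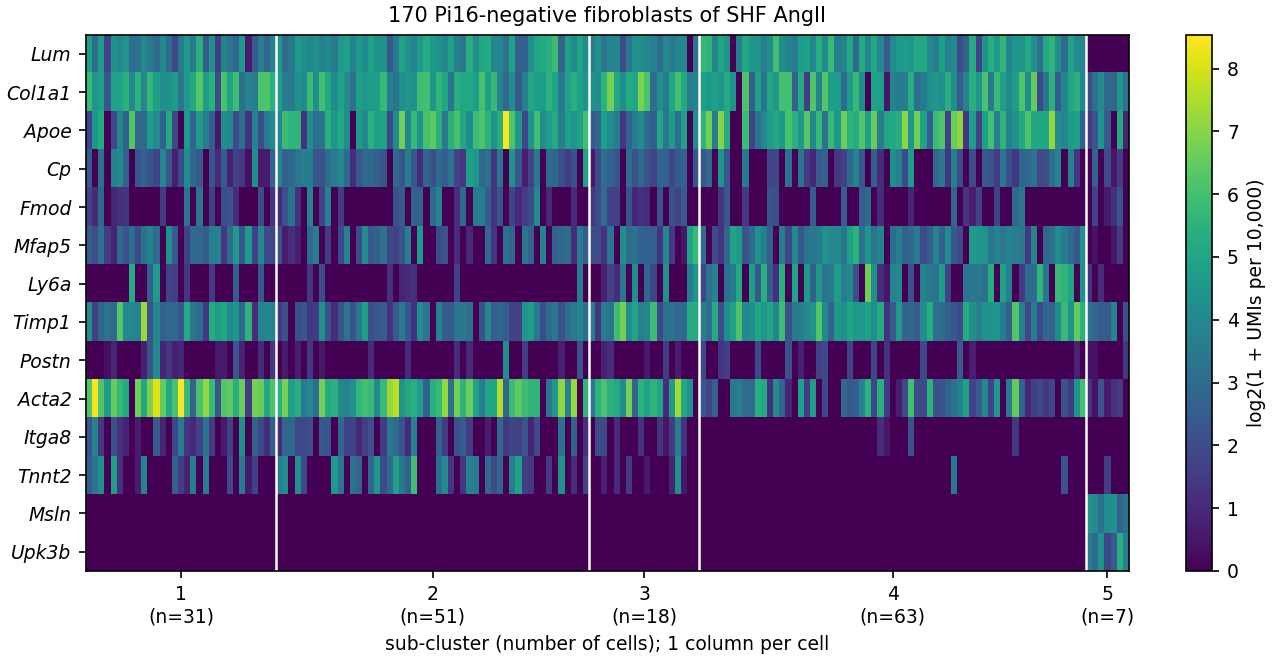
Heat map of 14 genes (rows) in the 170 Pi16-negative fibroblasts of SHF AngII (columns, grouped by sub-cluster with cell numbers under each), as log2(1 + UMIs per 10,000). Msln and Upk3b are seen in the 7 cells of sub-cluster 5, where Lum is absent; Acta2, Itga8 and Tnnt2 are high in sub-clusters 1 and 2, and Ly6a in sub-cluster 4.

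The 2228 other fibroblasts of the same library include 1236 Cthrc1 cells, which the rule leaves out of the Pi16-negative cells. Against these others, the Pi16-negative cells were higher in Apoe, Cp, Lpl and contractile genes and lower in adventitial, collagen and matricellular genes. Part of this was also seen in SHF baseline, as given below. In what follows, rose, fell, higher and lower of a called gene mean a ratio of at least 2-fold. Of 2635 genes with a mean of at least 50 CPM, 72 were higher (2.73%) and 57 lower (2.16%), and the median log2 ratio over all of them was 0.01. The rule used counts of these same cells, so the values below describe the cells and support no further statement. With TMM scaling, which shifts the median of all genes to -0.13, 55 genes were higher and 76 lower. Members had 3.38% mitochondrial and 16.3% ribosomal protein UMIs, and the other fibroblasts 2.87% and 19.0%.

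Gucy1a1, Itga8 and Ramp1 were among the 10 highest ratios. Gucy1a1, a subunit of the nitric oxide receptor guanylate cyclase, stood at 100.2 CPM in the Pi16-negative cells and 11.6 CPM in the others (log2 ratio 3.00, counting interval 2.85 to 3.35). Itga8 stood at 165 and 24.01 CPM (2.73), and Ramp1, a partner of the receptor for the vasodilator peptide CGRP, at 111 and 20.1 CPM (2.41). With thinned cells the ratios were 3.00, 1.64 and 1.71. Both Gucy1a1 and Itga8 were also expressed by smooth muscle-gated cells, at 120 and 782 CPM.

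Lpl, the lipase that releases fatty acids from lipoproteins, stood at 344 and 70.7 CPM (log2 ratio 2.27). Apoe, the lipoprotein carrier, stood at 2531 and 611 CPM (2.05, 2.004 to 2.09), and Cp, the copper-carrying ferroxidase, at 514 and 132 CPM (1.96). Frzb, a secreted Wnt antagonist, stood at 234 and 63.2 CPM (1.87). These 4 genes kept a ratio above 2-fold with thinned cells, at 1.83, 1.76, 1.42 and 1.45. Inhba, the activin A subunit, did not: it stood at 110 and 29.0 CPM (1.89), but at 0.41 with thinned cells. Fgl2, a secreted fibrinogen-like protein, stood at 1092 and 336 CPM, and Hsd11b1, which activates glucocorticoids, at 358 and 133 CPM.

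Ly6c1, Ly6a and Mfap5 were among the 10 lowest ratios. Ly6c1, a surface protein of adventitial fibroblasts, stood at 22.7 CPM here and 181 CPM in the others (log2 ratio -2.94), Ly6a at 358 and 1485 CPM (-2.05), and Mfap5, a microfibril protein, at 630.2 and 2856 CPM (-2.18). In the Pi16-positive cells among the others, which number 872 and also have fewer than 2 UMIs of Comp, Chad and Cthrc1, Ly6c1 was at 184 CPM, Ly6a at 1592 CPM and Mfap5 at 2152 CPM. The gap in these genes was therefore seen with the Cthrc1 cells left out of the comparison as well, and with thinned cells the ratios to the others were -3.05, -1.85 and -1.71.

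Postn, Ddah1 and Col12a1, also among the 10 lowest, were nearer to the level of the Pi16-positive cells than to that of the Cthrc1 cells. Postn, periostin, a matricellular protein of remodelling tissue, stood at 50.6 CPM and 383 CPM in the others (-2.90), but at 60.4 CPM in the Pi16-positive cells and 530.4 CPM in the Cthrc1 cells. Ddah1, which breaks down an inhibitor of nitric oxide synthesis, stood at 14.8 and 120 CPM (-2.94), with 20.1 CPM in the Pi16-positive cells and 166 CPM in the Cthrc1 cells. Col12a1, a fibril-associated collagen, stood at 38.5, 167, 69.3 and 212 CPM in the same order. With thinned cells the ratio to the others was -0.95 for Postn, -0.58 for Ddah1 and -0.50 for Col12a1, none of them past 2-fold, and depth moves with the Cthrc1 cells, whose median was 20583.0 UMIs. The part of depth was not tested further.

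Across the fixed lists (genes with a mean of at least 10 CPM, among which 3.55% of all 7472 genes were higher and 1.66% lower, with a median of 0.08), the matrix lists lay lower. No gene of 23 for fibrillar collagens and their processing had a ratio above 0, 4 of them were lower, and the median was -0.70 (-0.22 with thinned cells). Against the Pi16-positive cells alone 0 of the 23 were lower, 1 had a ratio above 0, and the median was -0.34. Col1a1 stood at 2969.6 CPM here, 3538.5 CPM in the Pi16-positive cells and 5128 CPM in the Cthrc1 cells. Col3a1, the main chain of collagen III, stood at 4235 CPM against 7732 CPM and Lox, the enzyme that cross-links collagen and elastin, at 562 against 1231 CPM. Of 20 matricellular and provisional matrix genes 7 were lower and 0 higher (median -0.52). Against the Pi16-positive cells alone 4 were lower and 1 higher (median -0.35). No share or median over all genes is set beside the counts against the Pi16-positive cells. They are a description only. Of 16 genes of the Pi16-type adventitial list 7 were lower and 1 higher, with a median of -0.98. That list was chosen around the gene that the rule requires to be absent.

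The contractile list lay higher: 6 of its 24 genes were higher, 0 lower, and the median was 0.52. Acta2 stood at 4196 CPM against 1943 CPM (1.11), Tagln, an actin-binding protein of smooth muscle, at 4316 against 1916 CPM (1.17), and Mylk, the kinase that starts smooth muscle contraction, at 89.7 against 9.58 CPM (3.10). Without the cells that carry markers of another type the median of the list was 0.44, and with thinned cells 0.45. Of 9 proteoglycan genes Fmod, fibromodulin, was higher (187 and 72.2 CPM) and Epyc lower. Among complement genes C2, of the classical pathway, was higher (42.7 and 10.8 CPM), and Cfb, a component of the alternative pathway, lower (71.7 and 165 CPM). In SHF baseline the same gate was also set against the other gated fibroblasts of that library, mostly Pi16-positive (2506 of 2852). The medians there were 0.40 for the contractile list, -2.15 for the Pi16-type adventitial list, -0.11 for collagens and -0.28 for matricellular genes. Apoe, Fmod and C2 were higher there too (1.73, 1.13 and 1.46), and Cfb lower (-1.29).

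**Figure D3:**
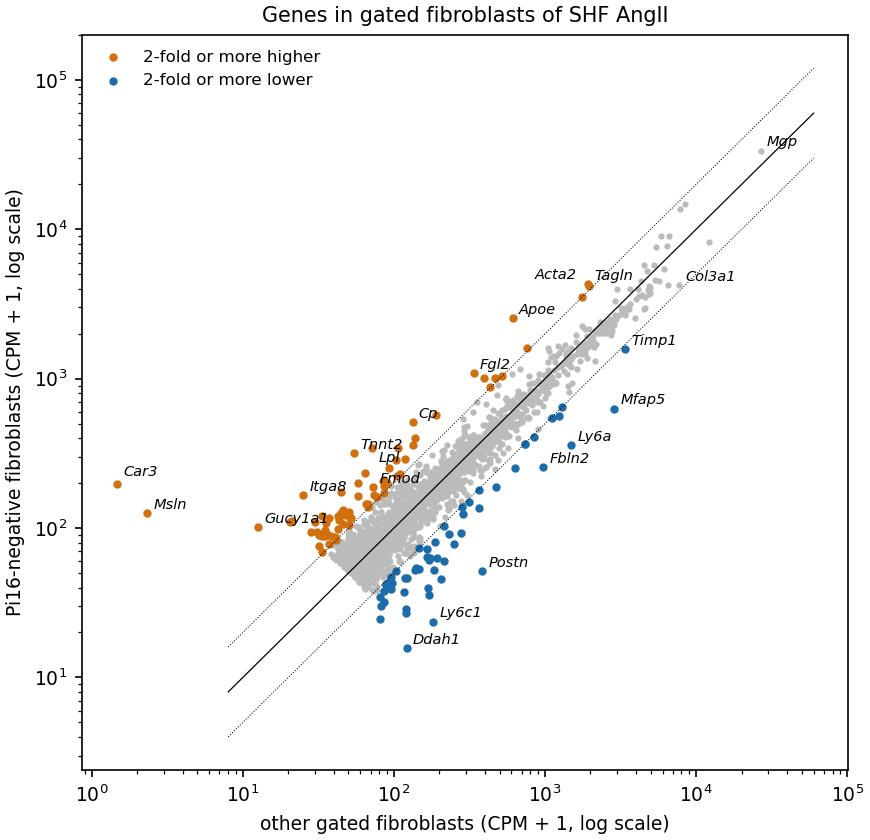
Level of each gene with a mean of at least 50 CPM in the 170 Pi16-negative fibroblasts (vertical, CPM + 1, log scale) against the 2228 other gated fibroblasts of SHF AngII (horizontal, same scale); gate genes are left out, the solid line is equality and the dotted lines are 2-fold. Apoe, Cp, Lpl, Itga8 and Gucy1a1 lie above the upper dotted line, Mfap5, Ly6a, Postn and Ddah1 below the lower one; Car3 comes from 1 cell.

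Against the 410 baseline cells of the same gate, the cells after AngII were higher in contractile and cell-cycle genes, Timp1, Serpina3n and some inflammatory genes. They were lower in Wnt modulators, outflow tract transcription factors, proteoglycans, Apoe and Gsn. Of 2741 genes 136 were higher (4.96%) and 211 lower (7.7%), with a median log2 ratio of 0.04 (174 and 180 with TMM scaling, median 0.12). The condition and the library cannot be told apart, because each condition is 1 library and the files were annotated differently. The rule also leaves out Cthrc1 cells, which made up 51.5% of the gate in SHF AngII and 5.15% at baseline. The part of that selection in the ratios below was not tested. For the 14 genes that moved by 3 or more in the same direction in smooth muscle-gated cells no ratio is read as a response. They include Spp1 and Pgk1.

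Contractile genes were higher as a group. All 24 genes of the list had a ratio above 0, 8 rose, 0 fell, and the median was 0.87, against -0.08 over the 7797 genes with a mean of at least 10 CPM (5.36% higher, 8.82% lower). Acta2 stood at 932 CPM in SHF baseline, 4196 CPM in SHF AngII and, in CNC AngII, 3534 CPM (log2 ratio to baseline 2.17, 2.11 to 2.23). Tagln stood at 1171, 4316 and 3387 CPM (1.88), and Tpm2, a tropomyosin of the thin filament, at 292, 1014 and 795 CPM (1.79). Both AngII libraries were above baseline for all 3 genes.

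Cnn1, calponin, a marker of mature smooth muscle, rose from 9.70 to 41.1 CPM (1.98), and Palld, an actin-bundling protein, from 16.3 to 76.5 CPM (2.17). In smooth muscle-gated cells Acta2 was at 35773 CPM and Cnn1 at 1958 CPM, so Cnn1 was far scarcer beside Acta2 in the Pi16-negative cells. The 2 gates select on Myh11, at most 2 UMIs here and at least 5 there. The gap in Cnn1 may follow that selection and supports no further statement. In the 7 mesothelial-like cells of the same library Acta2 was at 95.2 CPM, with a UMI in 85.7% of them, so a share of cells with a UMI says little for this gene. The part of free smooth muscle RNA in these levels was not tested. Cells with smooth muscle markers made up 12.4% of the AngII cells and 2.93% of the baseline cells. Without cells that carry markers of another type the median of the list was 0.72. The Pi16-positive fibroblasts moved too: Acta2 stood at 529.6 CPM at baseline and 2113 CPM after AngII (1.99), and the list median was 0.73. Whether the changes of the Pi16-negative and Pi16-positive cells differ was not tested.

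Many contractile genes are known to be driven by serum response factor, which binds a sequence called the CArG box. The 250 bases before the start of 22 of the 24 genes were found in RefSeq (GRCm38.p6), and those of Tagln and Actb were not. The box was taken as an exact CC, then only A or T, then GG. The stretches found were searched for it on both strands, which its symmetrical pattern makes the same search. Boxes with a changed letter, or elsewhere in the gene, were not searched for. An exact box was present in 5 of the 22 genes (Actg1, Cnn2, Myl6, Myl9 and Vcl), and in 1.47% of all 32851 promoters of the same length. The first is a count of genes, which had up to 3 promoters each, and the second a share of promoters. Acta2, Cnn1, Tpm1, Tpm2 and Palld rose but had no exact box in the 250 bases, and Tagln rose but was not searched. Actg1, Cnn2 and Vcl had a box but did not rise. The stretches of Myl9 and Myl6, the regulatory and essential light chains of smooth muscle myosin, are shown because both genes had a box and rose. Myl9 lies at chr2:156775214-156775463 on the plus strand, with the box starting 161 bases before the start, and Myl6 at chr10:128493010-128493259 on the minus strand, with the box 50 bases before it. Both are written 5′ to 3′ along the gene, with the box in capitals.
Myl9: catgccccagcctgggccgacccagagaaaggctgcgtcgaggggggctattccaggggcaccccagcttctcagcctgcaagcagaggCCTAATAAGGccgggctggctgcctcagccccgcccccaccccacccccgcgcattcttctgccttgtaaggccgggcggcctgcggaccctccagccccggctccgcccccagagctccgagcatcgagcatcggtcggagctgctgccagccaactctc
Myl6: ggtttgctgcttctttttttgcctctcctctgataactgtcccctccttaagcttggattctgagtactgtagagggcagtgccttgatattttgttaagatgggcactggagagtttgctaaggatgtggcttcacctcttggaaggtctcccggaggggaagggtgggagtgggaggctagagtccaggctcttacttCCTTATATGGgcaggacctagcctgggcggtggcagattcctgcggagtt

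Myl9 stood at 285 CPM in SHF baseline, 702 CPM in SHF AngII and, in CNC AngII, 621 CPM (log2 ratio to baseline 1.30). Myl6 stood at 1154, 4001 and 3741 CPM (1.79). A box in these letters is a description of the sequence and not a measured site of binding.

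Cell-cycle genes were higher by the widest margin of any list. Of 18 proliferation genes with enough UMIs 17 rose, with a median of 3.28. Mki67, Top2a, Cenpf and Pclaf had 3 UMIs (0.856 CPM) or fewer at baseline, and the size of the median depends on the pseudocount. The median was 1.86 with a pseudocount of 10 CPM and 2.45 with means of per-cell shares. Mki67, a protein of dividing cells, stood at 0.571 CPM at baseline and 34.3 CPM after AngII, and Top2a, which untangles replicated DNA, at 0.856 and 46.9 CPM. Counted per cell, 18 of the 170 cells (10.6%, 6.40 to 16.2) had at least 3 of 7 cycling genes, against 1 of 410 (0.244%, 0.00617 to 1.35) at baseline and 5 of 61 (8.197%) in CNC AngII. The share was 11.9% in the Pi16-positive cells and 17.1% in all other gated fibroblasts of SHF AngII. Cycling cells were a minority, and 70.8% of the Mki67 UMIs came from 5 of them.

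Inflammatory genes rose unevenly. Lcn2, lipocalin 2, an iron-sequestering protein of inflamed tissue, stood at 2.85 CPM in SHF baseline, 190 CPM in SHF AngII and, in CNC AngII, 254 CPM (log2 ratio to baseline 5.63, 5.16 to 7.13). It had a UMI in 28.8% of the cells after AngII and 1.95% of the baseline cells, and in 0.862% of smooth muscle-gated cells of SHF AngII, which were deeper. Of 26 chemokine and inflammatory genes 6 rose and 1 fell, with a median of 0.31. Ccl19, a lymphocyte-attracting chemokine, stood at 140 and 333 CPM (1.24), and Cxcl1, which draws neutrophils, at 201 and 415 CPM (1.04). Saa3 and Cxcl13, which draws B cells, are counted among the 6 but had no UMI at baseline, which allows up to 0.856 CPM. They stood at 108 and 38.5 CPM after AngII, with 100% and 97.3% of their UMIs in 5 cells or fewer. All 205 UMIs of Saa3 came from the 7 mesothelial-like cells, 93.2% of them from 1 cell, so its rise is not one of the Lum-positive fibroblasts.

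Il6, a fever-inducing cytokine, did not pass the limit (273 and 167 CPM, -0.70), nor did Ccl2 (251 and 389 CPM, 0.63) or Ccl7 (258 and 365 CPM, 0.50), both of which draw monocytes. In Pi16-positive cells Ccl7 stood at 91.5 and 557 CPM (2.59) and Ccl2 at 106 and 415 CPM (1.96), and the list median was 0.81. The baseline level of Ccl7 in Pi16-negative cells was the higher of the baseline pair. Socs3, a brake on cytokine signalling, fell from 674 to 205 CPM (-1.72). Cfb rose from 10.6 to 71.7 CPM (2.65), the only complement gene of 10 past 2-fold.

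The list of proteases and their inhibitors went both ways: 10 of its 18 genes stayed within 2-fold, and its median was -0.06 (-0.26 to 0.15 under the alternatives). Timp1, which blocks matrix metalloproteinases, stood at 229 CPM in SHF baseline, 1583 CPM in SHF AngII and, in CNC AngII, 1183 CPM (2.78, 2.68 to 2.90). Serpina3n, a serine protease inhibitor, stood at 115 and 515 CPM (2.15). Both were also higher after AngII in smooth muscle-gated cells, Timp1 at 24.5 and 290 CPM and Serpina3n at 2.38 and 23.7 CPM. Plaur, the urokinase receptor, rose from 9.70 to 57.0 CPM (2.44), while Plat, the tissue plasminogen activator, fell from 142 to 41.1 CPM (-1.76). Mmp3 rose from 512 to 1168 CPM (1.19) and Mmp2, a gelatinase, fell from 507 to 175 CPM (-1.53).

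Fibrillar collagen genes mostly stayed within 2-fold of baseline. Of 22 genes 2 rose and 1 fell, with a median of -0.04 (0.04 with TMM scaling). Col1a1 stood at 5083 and 2969.6 CPM (-0.78) and Col3a1 at 7551 and 4235 CPM (-0.83), neither past 2-fold. Fn1, fibronectin, rose from 78.5 to 367 CPM (2.21) and stood at 483 CPM in CNC AngII. In Pi16-positive cells it was at 391 CPM at baseline and 380.2 CPM after AngII (-0.04). Ccn3, a matricellular protein, rose from 65.4 to 409 CPM (2.63).

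Matricellular genes went both ways: of 18 genes 4 rose, 4 fell and 10 stayed within 2-fold, with a median of -0.39 (0.06 with thinned cells). The genes counted as higher include Spp1, which was set aside above and is not read as a response. Postn went from 284 to 50.6 CPM (-2.47), Tgfbi, a cell-adhesion protein of the matrix, from 259 to 55.4 CPM (-2.20), and Vcan, the large proteoglycan versican, from 153 to 51.2 CPM (-1.56). The drop of Postn was -0.72 with thinned cells and so no longer past 2-fold, and its level in CNC AngII was 206 CPM. In SHF AngII the level of Postn was higher in the Cthrc1 cells, which the rule leaves out, than in the Pi16-negative cells. Among elastic fibre genes Ltbp2, a binding protein of latent TGF-beta, rose from 126 to 421 CPM (1.73) and Efemp2, fibulin 4, from 126 to 312 CPM (1.30). Ltbp4 fell from 768 to 309 CPM (-1.31) and Fbln1, fibulin 1, from 1270.4 to 548 CPM (-1.21). Eln, elastin, stood at 2013 and 2535 CPM (0.33).

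Small proteoglycans, which bind collagen fibrils and set their width, lay lower, with 4 of 9 genes down and a median of -0.78. In Pi16-positive cells their median was -0.63 and in smooth muscle-gated cells -0.70. Fmod fell from 455 to 187 CPM (-1.28), Prelp from 688 to 300 CPM (-1.20) and Omd, osteomodulin, from 90.8 to 32.7 CPM (-1.45). Lum stood at 2812 and 1679 CPM (-0.74). Bgn, biglycan, stood at 3915 and 4005 CPM (0.03, -0.01 to 0.07).

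Genes of the TGF-beta pathway had a median of -0.65 (-0.61 in Pi16-positive cells). Inhba alone of 18 rose, from 21.4 to 110 CPM (2.30), and it was 45.9 CPM in CNC AngII. Tgfb3, a ligand, fell from 81.9 to 26.9 CPM (-1.57) and Bambi, a decoy receptor, from 196 to 82.8 CPM (-1.24). Ccn2, a widely used target gene of the pathway, stood at 1708 and 1935 CPM (0.18).

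Secreted Wnt modulators fell, with 5 of 10 genes down, 1 up and a median of -0.92 (-0.87 in Pi16-positive cells). Wif1, a Wnt inhibitor, showed the largest drop among the genes named: 282 CPM in SHF baseline, 6.33 CPM (12 UMIs) in SHF AngII and, in CNC AngII, 8.19 CPM (-5.27, -6.44 to -4.67). The ratio was -3.50 with thinned cells. In Pi16-positive cells it stood at 27.6 and 12.3 CPM (-1.10). Wnt5a, a ligand, fell from 170 to 40.6 CPM (-2.04), Dkk3 from 310 to 98.1 CPM (-1.65), and Rspo3, which amplifies Wnt signals, from 50.8 to 8.44 CPM (-2.46). Rspo1 rose from 9.99 to 25.8 CPM (1.29).

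Transcription factors of fibroblasts and the outflow tract had a median of -0.54 (-0.49 in Pi16-positive cells), with 7 of 23 down and 1 up. Tbx20, a T-box factor of the heart and its valves, stood at 114 CPM in SHF baseline, 7.38 CPM (14 UMIs) in SHF AngII and, in CNC AngII, 9.83 CPM (-3.78, -4.84 to -3.19). The ratio was -2.22 with thinned cells. Sox9, the master regulator of cartilage, fell from 109 to 22.7 CPM (-2.22), Meox1, a homeobox factor of fibroblast activation, from 49.4 to 6.86 CPM (-2.68), and Gata4, a cardiac zinc-finger factor, from 31.4 to 10.0 CPM (-1.56). Osr1 rose from 42.8 to 127 CPM (1.55). Tcf21, a factor of fibroblast precursors, stood at 247 and 208 CPM (-0.24).

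Of 18 growth factor genes 5 fell and 0 rose. Igfbp3, an IGF carrier, stood at 429 CPM at baseline and 43.2 CPM after AngII (-3.28), where 75.6% of its UMIs came from 1 cell. Ptn, the growth factor pleiotrophin, fell from 241 to 33.2 CPM (-2.82) but stood at 174 CPM in CNC AngII. Vegfa, the endothelial growth factor, also fell (-1.57). Immediate early genes, which respond to stimuli within minutes, had a median of -0.85, with 7 of 21 down. Their median was -0.96 in Pi16-positive and -0.80 in smooth muscle-gated cells, where the medians of all genes were -0.19 and -0.10, so all 3 cell groups were lower after AngII. Egr1 stood at 2312 and 1038 CPM (-1.15) and Zfp36, which shortens the life of cytokine mRNAs, at 1825 and 717 CPM (-1.35).

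Apoe, which was higher than in the other fibroblasts of the library, was lower than at baseline. Apoe stood at 11827 CPM in SHF baseline, 2531 CPM in SHF AngII and, in CNC AngII, 1811 CPM (-2.22, -2.27 to -2.18). Gsn, gelsolin, an actin-severing protein of adventitial fibroblasts, stood at 6623, 1407 and 1840.1 CPM (-2.23). In Pi16-positive cells Apoe fell from 3469 to 1048 CPM (-1.73) and Gsn from 10888 to 2396 CPM (-2.18). In smooth muscle-gated cells Apoe was lower by as much, at 825 and 162 CPM (-2.34), while Gsn stood at 648 and 531 CPM (-0.29). Cp, Itga8, Gucy1a1 and Fgl2 had ratios to baseline between -0.14 and 0.44.

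Genes of the Pi16-type adventitial list went both ways: 3 of 16 were up, 5 down and 8 within 2-fold, with a median of -0.22 (-0.73 with thinned cells). Of 14 genes of the Col15a1-type and perivascular list 1 was up and 4 down (median -0.36). In Pi16-positive cells the median of the Pi16-type adventitial list was -1.37, with 12 of 19 genes down and 0 up. Over all genes of those cells 3.8% were up and 8.83% down. Cd248, endosialin, stood at 17.1 and 51.2 CPM (1.52) in Pi16-negative cells and 224 and 152 CPM (-0.55) in Pi16-positive cells. Anxa3, a membrane-binding annexin, stood at 44.0 and 178 CPM (1.995), and at 417 and 273 CPM (-0.61). Mfap5 stood at 593 and 630.2 CPM (0.09), and at 2921 and 2152 CPM (-0.44). The level of Ly6a was 242 and 358 CPM in Pi16-negative cells, and 951 and 1592 CPM in Pi16-positive cells. For 14 of the 16 genes, Cd248, Anxa3 and Mfap5 among them, the log2 ratio of the 2 cell groups was nearer 0 after AngII than at baseline. For Ly6a (-1.97 at baseline and -2.15 after AngII) and Limch1 (0.66 and 1.19) it was further from 0. The list was chosen around Pi16, which also splits the 2 cell groups, and no count over all genes is set beside the 14 of 16. That count used cells that were not thinned and is a description only. The difference between the changes was not tested.

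Fabp4 rose from 7.99 to 397 CPM (5.47), of which 55.8% came from 1 cell, the ratio being 4.50 without cells of other types. Fabp5 went from 85.9 to 568 CPM (2.71), but the ratio was 0.53 without those cells. Agtr1a, the type 1 angiotensin receptor, stood at 4.22 CPM (8 UMIs) after AngII and 3.14 CPM (11 UMIs) at baseline. The interval of the log2 ratio, -1.09 to 1.87, holds 0, so a change was not detectable at this depth. Rgs4, a brake on signalling by receptors of this kind, rose from 4.57 to 22.7 CPM (2.09), and Rgs2, another, fell from 49.9 to 8.44 CPM (-2.43). Interferon-stimulated Isg15 stood at 68.8 and 177 CPM (1.35).

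**Figure D4:**
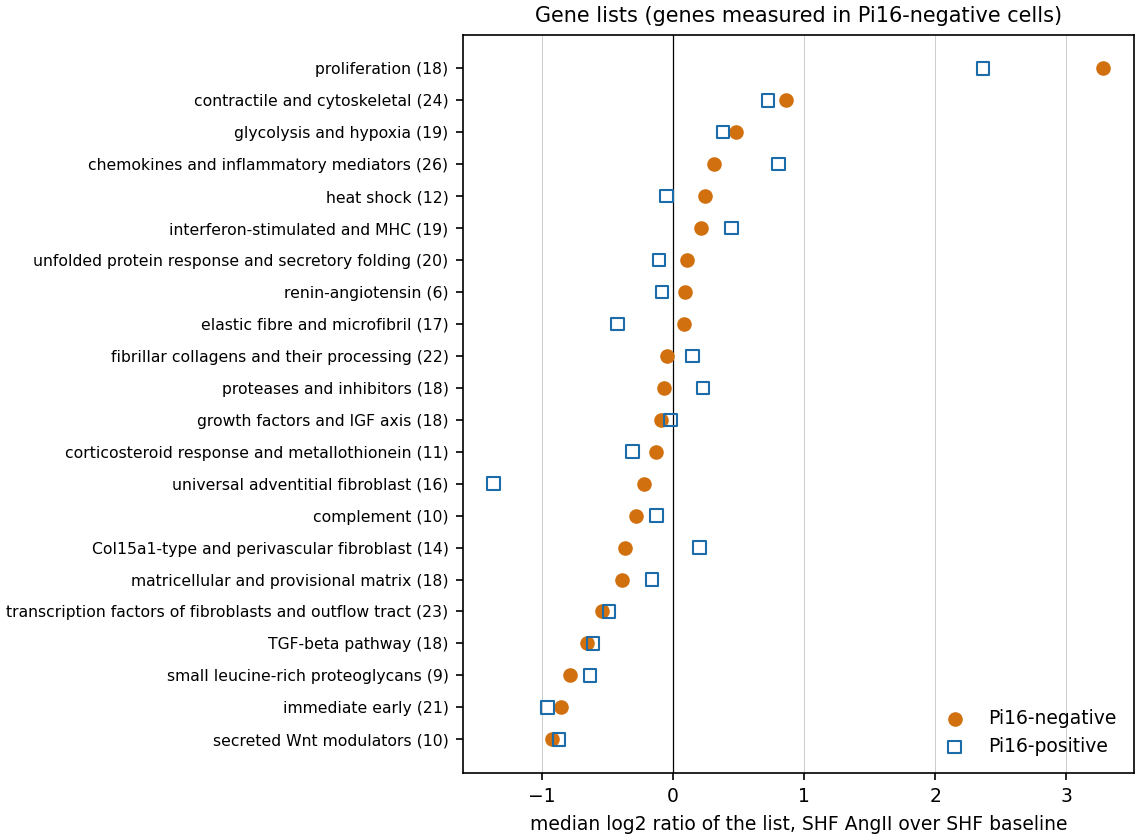
Median log2 ratio (SHF AngII over SHF baseline) of the 22 gene lists in Pi16-negative (filled circles) and Pi16-positive fibroblasts (open squares); the number of genes measured is in brackets. Proliferation lies furthest right (3.28), contractile genes lie at 0.87, and Wnt modulators (-0.92) and immediate early genes (-0.85) lie lowest among Pi16-negative cells; the Pi16-type adventitial list is at -0.22 and -1.37.

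**Figure D5:**
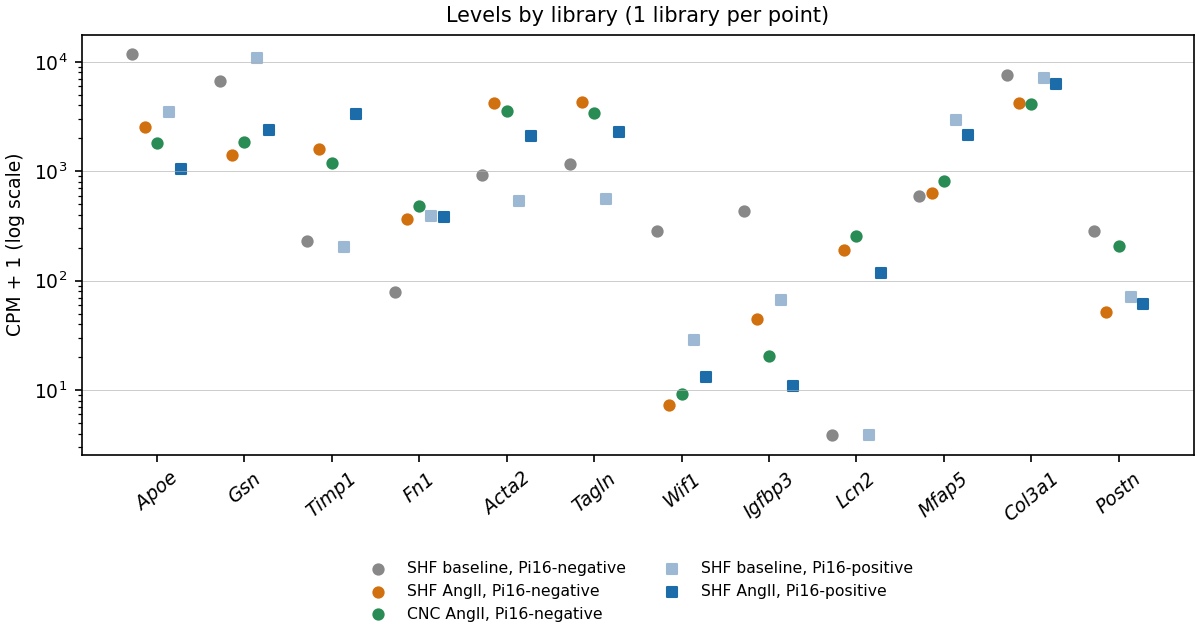
Level (CPM + 1, log scale) of 12 genes in Pi16-negative (circles) and Pi16-positive (squares) fibroblasts, 1 library per point. For Apoe, Gsn, Timp1, Acta2 and Lcn2 both AngII libraries lie on the same side of baseline; Postn of the Pi16-negative cells is lower in SHF AngII (50.6 CPM) than in CNC AngII (206 CPM).

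The same gate in CNC AngII held 61 cells. Of 2650 genes 27 were higher in the SHF cells (1.02%) and 41 lower (1.55%), with a median of 0.04, so fewer genes were past 2-fold than against baseline. Hsd11b1 stood at 358 CPM in SHF and 90.1 CPM in CNC (log2 ratio 1.98), and Fgl2 at 1092 and 349 CPM (1.64). Sfrp2, a Wnt modulator, stood at 151 and 1062 CPM (-2.81), and Igfbp2, an IGF carrier, at 8.97 and 121 CPM (-3.62). Tnnt2, a cardiac troponin used as a marker, stood at 315 and 54.1 CPM. Fabp5 stood at 568 and 83.6 CPM (2.75), with 0.69 once cells of other types were left out.

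Macrophage markers moved with this comparison: their summed level was 749 CPM in the CNC cells and 15.3 CPM in the SHF cells, although Ptprc was 0 in both by the gate. C1qb, a complement subunit of macrophages, had no UMI in the SHF cells, which allows up to 1.58 CPM, and stood at 187 CPM in the CNC cells. The chemokines Cxcl2 (23.7 and 192 CPM, -2.96) and Cxcl5 (14.2 and 116 CPM, -2.94) were lower in the SHF cells, and 95.6% and 100% of their SHF UMIs came from 5 cells or fewer. With thinned cells these ratios were -1.76 and -1.08. The part of macrophage RNA in these values was not tested.

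Over whole libraries, the 3 held 92474476 to 150954701 UMIs, with medians of 10396.0 to 13459.0 per kept cell. The 170 cells held 1896226 UMIs, the 410 baseline cells 3503723 and the 61 CNC AngII cells 610305. Barcodes shared between libraries numbered 29 to 34 per pair, and of the 170 cells 1 shared its barcode with SHF baseline and 2 with CNC AngII.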

How the data were processed

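Droplet-based single-cell RNA libraries of sorted aortic cells were analysed for SHF AngII, SHF baseline and CNC AngII. CNC baseline was not analysed here. The deposited values are raw UMI counts (unique molecular identifiers) per gene and barcode. Per the submitters' processing notes, which give no role or order, the tools were fastp, STAR 2.5 and HTSeq 0.6.1 and the build was mm10. How barcodes were called as cells is not given in the sources used here. Both AngII files list 32285 genes, and the baseline file lists 18760 under older names. Names were matched directly (17594 genes) or through a unique synonym (514), and 13 duplicated names were left out.

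UMIs were summed over each group of cells and put on the CPM scale (counts per 1000000 UMIs). Ratios are log2((CPM + 1)/(CPM + 1)). Single values have exact Poisson intervals, ratios conditional binomial intervals and shares Clopper-Pearson intervals, all at 95%. None covers more than counting error. With 1 library per group there is no test and no p-value. Calls are 2-fold ratios among genes with a mean of at least 50 CPM, without the genes of the gate. Gene lists use a mean of at least 10 CPM. The genes named are the 10 highest and 10 lowest ratios among genes seen in 10% or more of the cells in the higher group, without mitochondrial and ribosomal protein genes and markers of other cell types, plus genes of the lists, the 20 most variable genes and the 15 most abundant. Against baseline, genes past 3 on the log2 scale in the same direction in smooth muscle-gated cells were set aside as possible annotation differences. The members and the lists were chosen with earlier results of these data known. Variation was measured with every cell thinned to 5000 UMIs. Members were sub-clustered with scanpy 1.11.5 (Leiden, resolution 0.5, 20 components, 15 neighbours, 2000 variable genes). Scrublet marked 192 barcodes (1.96%) of SHF AngII as doublets, 207 (2.29%) of SHF baseline and 279 (2.61%) of CNC AngII, and they were left out as an alternative only. Other alternatives were TMM scaling (edgeR 4.0.16), totals without mitochondrial and ribosomal protein genes, means of per-cell shares, a pseudocount of 10 CPM, other gene minimums, depth limits and other gates. The ratio and interval code was tested on simulated data.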

Additional observations from a re-analysis of the deposited data

How the results depend on the processing

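The sign of the log2 ratio held under all 13 alternatives for each of the 60 named genes, although 158 of their 780 values moved by more than their counting interval, and 31 list medians moved while 453 did not. Shares of Pi16-negative cells in SHF AngII, SHF baseline and CNC AngII were 13.1%, 16.1% and 11.8% with cells thinned to 5000 UMIs and 4.41%, 10.4% and 4.73% among cells with at least 10000 UMIs. With Comp, Chad and Cthrc1 each at 0 they were 5.88% in SHF AngII and 5.85% in CNC AngII. Counts of higher and lower genes against other fibroblasts, baseline and CNC were 37 and 35, 83 and 105, and 16 and 21 with a mean of at least 100 CPM, where fewer genes are counted, and 265 and 124, 418 and 688, and 293 and 207 with at least 10 CPM. Thinning gave 40 and 36 against other fibroblasts, 44 higher against CNC, and 1 list with a median past 1.5-fold against other fibroblasts (2 unthinned). Cells of at least 10000 UMIs gave 50 and 77 against CNC. Genes with a Fano factor over 2 numbered 147 of 1339 (11.0%) at 2000 UMIs per cell and 360 of 3095 (11.6%) at 5000. Leaving out cells with markers of other types, chosen after seeing the data, gave 59 and 51 against other fibroblasts and 136 and 209 against baseline. A gene with few UMIs is limited by depth: 12 UMIs of Wif1 give an interval of 3.27 to 11.1 CPM. No paired analysis was possible because each group is 1 library and the labels carry no replicate numbers.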
